A study of Mus musculus with 13 samples.

Results

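Long domains of histone H3 trimethylated at lysine 27 (H3K27me3) were collected from mouse embryonic fibroblasts that carried an inducible Myf6, and the peaks of Myf6 inside, at the ends of and around them were described. The domains were chosen by the positions of H3K27me3 peaks alone. Peaks on chromosomes 1 to 19 were joined across gaps of up to 3000 bp, and a joined stretch was kept as a long domain where it spanned at least 5000 bp from its first start to its last end. Of 27747 joined stretches, 79 passed, which is 0.285%. Their number, span and H3K27me3 values therefore follow from the rule and are given as descriptions without a test.

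Polycomb repressive complex 2 places H3K27me3 on nucleosomes, and the mark is known from silent genes, above all those of development and of other lineages. It can spread over long stretches of chromatin, and such broad domains are a known feature of fibroblasts and other differentiated cells. Myf6 belongs to the myogenic basic helix-loop-helix factors, binds short E-box motifs with a partner protein, and takes part in muscle differentiation. Forskolin activates adenylyl cyclase, RepSox inhibits the TGF-beta type I receptor and CHIR99021 inhibits GSK3.

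The fibroblasts came from mice that combine the alleles Pax7-CreERT2, Rosa26-LSL-tdTomato and CAG-rtTA3, and had been transduced with a lentivirus in which a doxycycline-responsive promoter drives Myf6 with HA tags, so all groups carry these alleles and the virus, and the factor is overexpressed. They spent 24 h in iMPC medium under 1 of 3 conditions: no doxycycline; doxycycline at 2 µg/mL, called +Myf6; or the same doxycycline joined by CHIR99021 at 3 µM and by RepSox and Forskolin at 5 µM each, called +Myf6+F/R/C. CUT&RUN, in which a nuclease bound to an antibody cuts chromatin at the antibody's target, was done with an HA antibody and with a control IgG in 2 libraries per condition, and with an H3K27me3 antibody in a single +Myf6+F/R/C library, 13 libraries in all. The H3K27me3 list has no replicate and stands for that 1 condition, so domains of the other conditions were not analysed here, and fewer cells with the mark cannot be told apart from less mark per cell. The labels do not say whether replicates were separate cultures, so the spread between them may be technical. The lists hold no transcripts, and the labelled cell type was not checked against markers. Gene annotation was not used here, and positions are on GRCm39.

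Lists differed much in length and depth. On chromosomes 1 to 19 the 4 HA lists of induced cells held 28012 to 37811 peaks, the 2 HA lists without doxycycline 2130 and 4138, and the 6 IgG lists 410 to 1648. The mean number of fragments per 10 kb, recovered from each list, was 30.6 to 61.9 in the induced HA libraries, 30.6 and 23.7 in the uninduced ones, 8.25 to 22.7 with IgG and 54.3 with H3K27me3. A peak was placed by its summit, its position of highest signal, and the fold is the authors' enrichment of that summit over the local background of the same library.

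As called, the 79 long domains were chains of H3K27me3 peaks with gaps between them, and most were just above the span threshold. A gap holds no called peak, and the H3K27me3 signal in the gaps was not measured. Spans ran from 5005 to 33065 bp with a median of 5567 bp. There were 55 domains under 6000 bp, 14 of at least 7000 bp and 4 of at least 10000 bp. None came from a single peak, since the widest H3K27me3 peak was 4542 bp. The domains held 279 H3K27me3 peaks, and 17 had 2 peaks, 36 had 3 and 14 had 4. The 200 gaps between them had a median of 1744 bp and ran from 154 to 2988 bp. Together the domains spanned 0.520 Mb, of which H3K27me3 peaks covered 0.215 Mb (41.4%). In single domains the covered share ran from 17.8 to 63.4%, and it was at least 50% in 18. They held 0.839% of the length covered by H3K27me3 peaks on these chromosomes, and 86.6% of all stretches were a single peak.

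No natural break set the long domains apart from shorter stretches. Just inside the threshold were domains of 5005 bp (chr17:34134862-34139866), 5027 bp (chr14:56808517-56813543) and 5029 bp (chr13:120058163-120063191). Just outside were 2 stretches of 4985 bp (chr10:79974060-79979044 and chr15:96182063-96187047) and 1 of 4966 bp (chr3:58322872-58327837). With gaps of up to 5000 bp 804 domains would pass, and with gaps of up to 1000 bp none. Every long domain thus held at least 1 gap of more than 1000 bp.

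**Figure D1:**
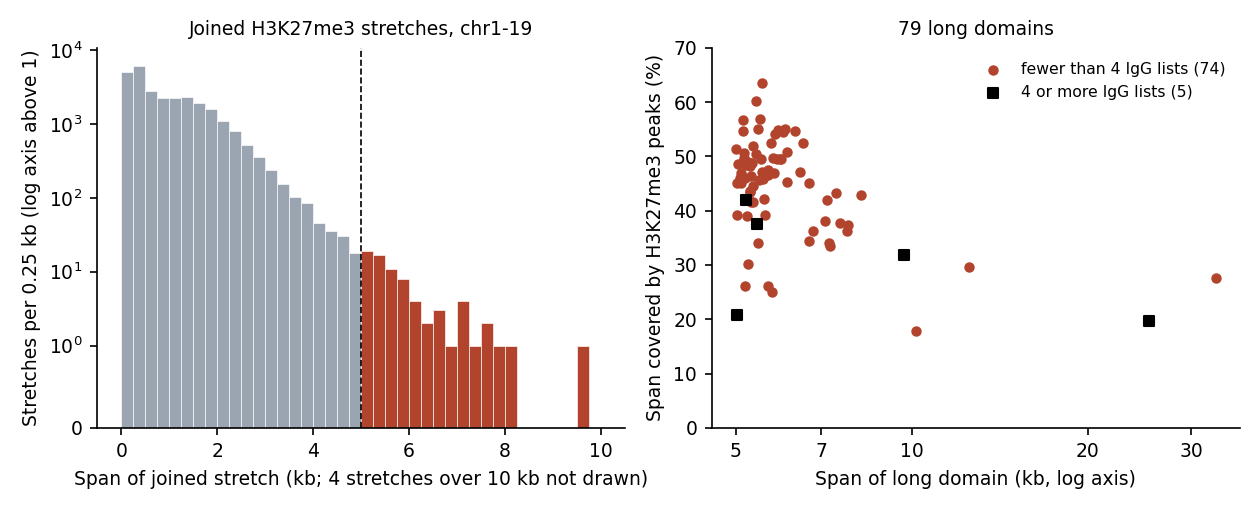
Left, number of joined H3K27me3 stretches (log axis above 1) by span in kb, with the 5 kb threshold dashed and long domains in red; right, the share of each long domain's span that H3K27me3 peaks cover (%) against its span (kb, log axis). Counts fall smoothly through the threshold, and the 4 domains of at least 10 kb are covered by under 30%.

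H3K27me3 peaks of long domains were of low fold on a high local background. Their median fold was 3.24, against 5.31 for the 31851 peaks of shorter stretches. The summits themselves were higher, with a median pileup (fragments over the summit) of 63 against 18. The expected pileup, which the peak caller took from windows of the same library, had a median of 18.5 against 1.83. These values come from the list that chose the domains and are a description only.

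Long domains were spread over 18 of the 19 chromosomes, with more of them on chromosomes 11, 13 and 17. Chromosome 11 held 13, chromosomes 13 and 17 held 10 each, and chromosome 16 held none. These 3 chromosomes had 41.8% of the domains and 17.5% of the H3K27me3 peaks. Per 100 Mb there were 10.9 domains on chromosome 11, 8.52 on chromosome 13 and 10.9 on chromosome 17, against 3.29 over chromosomes 1 to 19. Chromosome 11 also had the most H3K27me3 peaks per Mb, 21.4, while chromosome 13 had 13.3, close to the 13.4 over all.

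Some long domains had another one nearby, but no share for other stretches was computed to set beside the count. Of the 79, 31 lay within 1 Mb of another and formed 12 groups. The largest groups had 4 domains each, within 280 kb on chromosome 13 (chr13:23490938-23770713) and within 995 kb on chromosome 19 (chr19:5117710-6112225). Upstream of the first of these lay a further group of 3 on chromosome 13 (chr13:21350938-22103944). The closest pair, on chromosome 9, was only 3.03 kb apart, just beyond the joining gap, and both of its domains carried IgG peaks, as described below.

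A group of 5 domains carried peaks with every antibody, and they need to be read apart from the rest. Defined after the data were seen as domains with a summit of 4 or more of the 6 IgG lists, these 5 were chr2:98492526-98497732, chr9:3000037-3009749, chr9:3012782-3038250, chr13:120058163-120063191 and chr17:40153935-40159370. They made up 6.33% of the long domains, against 0.822% of all stretches with such IgG summits. All 5 had summits in the 4 induced HA lists and both uninduced HA lists. IgG summits were in all 6 lists at 4 of the domains and in 5 lists at the domain on chromosome 13. The pair on chromosome 9 lay where the first peaks of any list on that chromosome were.

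Signal at these 5 domains was found with each antibody, with and without induction, and its size differed between the domains. At the domain on chromosome 2, the highest HA summit pileup was 320 and 321 fragments after +Myf6, and 325 and 341 after +Myf6+F/R/C. Without doxycycline HA reached 304 and 216 fragments, and the pileup was 208 to 328 in the 6 IgG libraries and 320 in the H3K27me3 library. The folds at these summits overlapped too, at 5.51 to 6.35 for induced HA and 5.14 to 6.39 for IgG. As deposited, the induced HA values thus lay within or beside the IgG range there. Over the HA and IgG lists these pileups rose with the list's narrowest peak, used here as fragment length. They were 208 at 104 bp and 328 at 166 bp with IgG, and 216 at 108 bp and 304 at 152 bp with uninduced HA. With induced HA they were 320 at 161 bp and 341 at 172 bp. Differences between these pileups therefore cannot be read as differences in signal, and the part of fragment length was not tested. Pileups at the 5 domains are not scaled to depth. Depth was 30.6 to 61.9 fragments per 10 kb with induced HA and only 8.25 to 22.7 with IgG, so like pileups do not mean like signal per depth.

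The 25469-bp domain on chromosome 9 held the most IgG summits of all. Each of the 6 IgG lists had 14 to 25 summits in it, the 2 uninduced HA lists had 18 and 25, and the 4 induced HA lists had 16 to 19. Its neighbour of 9713 bp had 6 to 11 IgG summits and 5 to 7 induced HA summits per list. At the domains on chromosomes 13 and 17 the highest pileups were lower, 34 to 49 and 64 to 79 fragments for induced HA. With IgG they were 24 to 48 and 45 to 72 fragments. At the domain on chromosome 13 uninduced HA was above induced HA, with highest pileups of 68 and 57 fragments and folds of 6.31 and 7.996 against 34 to 49 fragments and folds of 3.31 to 4.66. On chromosome 9 the highest H3K27me3 pileups, 163 and 125 fragments, were below those of IgG, 200 to 233 and 184 to 226. Over the 5 domains, median folds of induced HA peaks were 2.28 to 2.62, so the expected pileup was high there too. What the IgG signal contributes to the H3K27me3 peaks that define these domains was not tested.

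The 5 domains held most of the control summits found in long domains. They made up 9.79% of the total span but held 215 of 221 IgG summits, and 40 of 43 and 44 of 44 uninduced HA summits. For HA they also held 34 of 60 and 34 of 75 summits after +Myf6, and 32 of 77 and 32 of 70 after +Myf6+F/R/C. The other 74 domains kept 26 and 41 HA summits after +Myf6 and 45 and 38 after +Myf6+F/R/C. These stood against 3 and 0 of uninduced HA and 0 to 2 per IgG list. Low IgG counts in the 74 domains follow from how the 5 were set apart, and the control lists were much shorter, so these counts are a description.

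**Figure D2:**
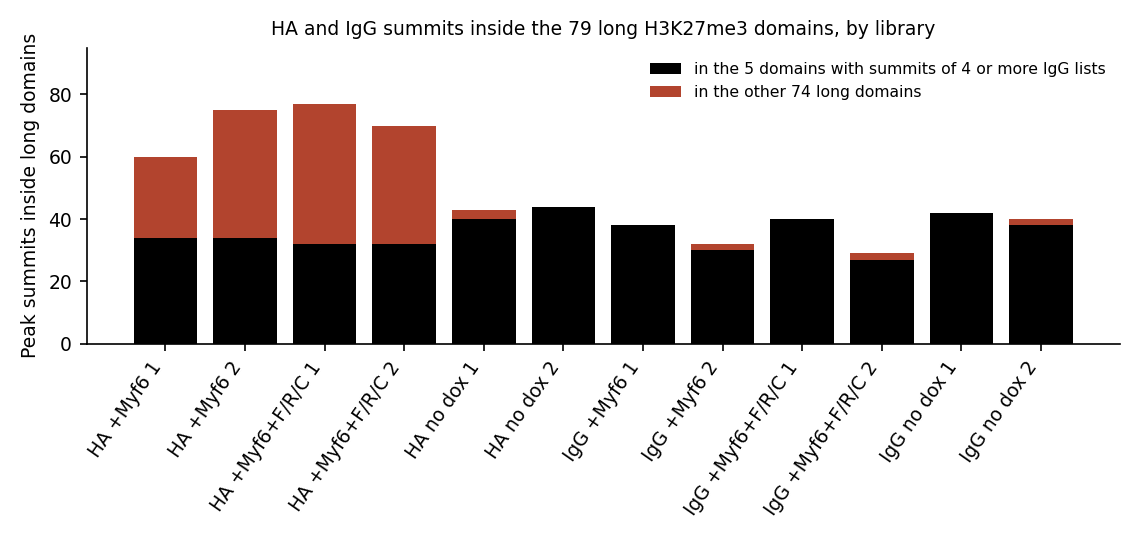
Number of peak summits inside the 79 long domains in each of the 12 HA and IgG libraries, split into the 5 domains with summits of at least 4 IgG lists (black) and the other 74 (red). The black part is 27 to 44 summits in every library, while the red part is 26 to 45 with induced HA and 0 to 3 in the controls.

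As a share of each list, long domains took a smaller part of induced HA peaks than of IgG peaks. The inside share of HA was 0.214% and 0.217% after +Myf6 and 0.204% and 0.222% after +Myf6+F/R/C, and it was 9.27%, 3.10%, 4.43% and 1.76% in the 4 IgG lists of the same cells. Means were 0.214 ± 0.00781% and 4.64 ± 3.27% (SD, n = 4 each; exact permutation p = 0.0286, two-sided, the smallest that 4 against 4 allows; 0.0857 with Benjamini-Hochberg adjustment over 6 comparisons). With HA and IgG paired by their shared nuclei in a replicate block, exact sign flips gave p = 0.125, the smallest for 4 pairs. All 4 induced HA lists lay below all 4 IgG lists. Without the 5 domains HA was higher by 0.0340 percentage points on average, but those domains were chosen by their IgG summits, so leaving them out lowers the IgG share by construction and is no test. The IgG lists were short, so their shares move with a few peaks. Of their 38, 32, 40 and 29 inside summits, 38, 30, 40 and 27 were in the 5 domains. The IgG shares in the comparison thus rest almost wholly on those domains. As counts, the induced HA lists had 32 to 34 summits there and 60 to 77 inside in all, more than the IgG lists.

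With 2 libraries a group, no comparison of the inside share by induction or by compounds could pass a test. Without doxycycline the HA lists had 2.02 and 1.06% of their peaks inside, above both +Myf6 lists (exact permutation p = 0.333, n = 2 each, the smallest that 2 against 2 allows). Without the 5 domains, which also held nearly all uninduced HA summits, +Myf6 was higher by 0.0353 points. Within uninduced cells, HA had a lower share than IgG, whose lists had 8.90 and 5.39% (exact permutation p = 0.333, n = 2 each). Between +Myf6+F/R/C and +Myf6 the shares differed by -0.00267 points, less than the spread between replicates (exact permutation p = 1.00, n = 2 each).

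Most of the other 74 domains held at least 1 HA summit after induction, though few held one in every library. Of the 74, 54 (73.0%) had an induced HA summit, against 51.8% of all stretches and 67.4% of the 129 stretches of at least 4000 and under 5000 bp. Unlike the 74, these 2 sets still include stretches with summits of 4 or more IgG lists, 228 and 3 of them. Summits, at any place in the domain, came from 1 list in 22 domains, from 2 in 13, from 3 in 7 and from all 4 in 12. No summit of any list was found in 19, and 1 had a control summit only. IgG summits were in 6 of the 74, each in 1 list, and uninduced HA summits in 3. Of those 12 domains, 8 had no control summit at all. Per domain, 19 had 1 induced summit over the 4 lists, 13 had 2, and the most was 19.

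HA summits repeated between libraries were found in a higher share of long domains than of all H3K27me3 stretches, which was not tested. Both +Myf6 HA lists had a summit in 22 of the 79 domains (27.8%) and in 17 of the 74 (23.0%), against 15.2% of all stretches. Both +Myf6+F/R/C HA lists did so in 24 (30.4%) and 19 (25.7%), against 17.7%. All 4 lists did in 17 (21.5%) and 12 (16.2%), against 9.74%. In the 129 stretches of at least 4000 and under 5000 bp the shares were 17.1%, 26.4% and 13.2%, of which the first and last were below those of the 74 domains. Stretches with summits of 4 or more IgG lists were left out of the 74 only, not of the 129 or of all stretches. The counts also depended on weak peaks: with −log10 q of at least 5 in the HA lists, 9 domains kept summits in both +Myf6 lists and 13 in both +Myf6+F/R/C lists.

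**Figure D3:**
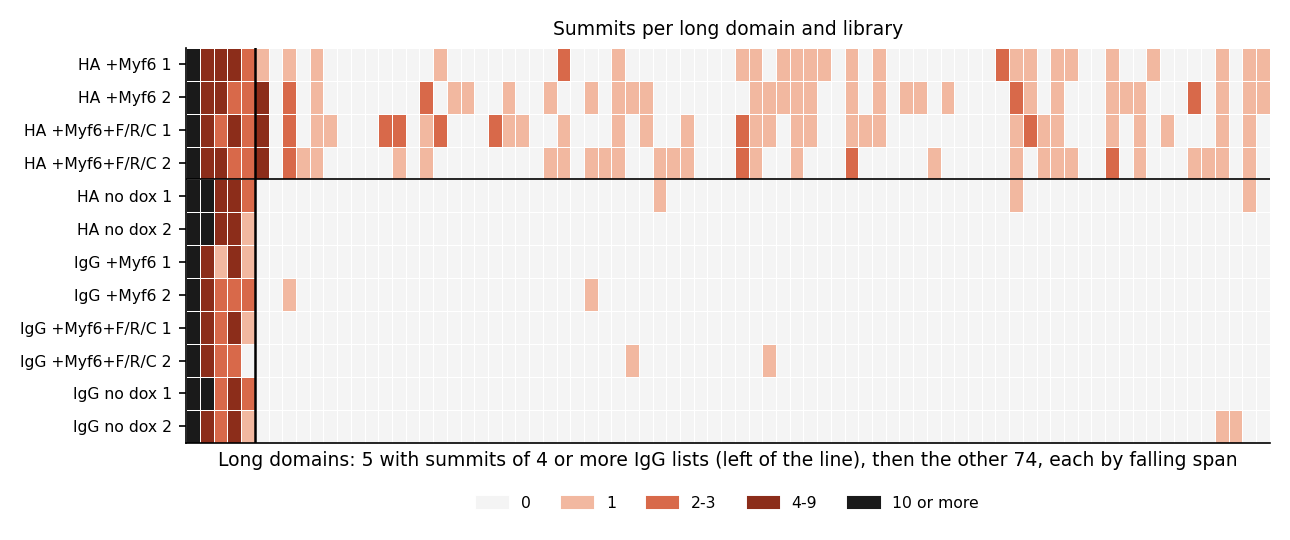
Number of summits (colour) in each of the 79 long domains (columns) and each of the 12 HA and IgG libraries (rows), with the 5 domains of at least 4 IgG lists left of the upright line and the 74 others by falling span. In the 74, induced HA summits are scattered, with 12 domains filled in all 4 rows, and the 8 control rows hold 9 summits.

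Per length, HA summits in the 74 domains were denser than in chromatin without H3K27me3 peaks and sparser than in short stretches. The 4 induced HA lists had 55.5, 87.5, 96.0 and 81.1 summits per Mb of span (+Myf6 replicates 1 and 2, then +Myf6+F/R/C replicates 1 and 2). In the same order, chromatin outside all stretches had 8.96, 10.8, 12.3 and 9.69 per Mb. Shorter stretches with summits of fewer than 4 IgG lists had 236, 313, 307 and 298 per Mb. The density in the 74 domains was thus 6.19 to 8.36 times that outside and 0.235 to 0.313 times that in shorter stretches, with the same direction in 4 of 4 libraries (exact sign flips p = 0.125 for both, n = 4 libraries, the smallest possible). Control lists gave 0 to 6.40 summits per Mb in the 74 domains. In the 4 control lists with 2 or 3 summits there, the ratio to chromatin outside was 8.71 to 33.2, so a ratio above 1 was not particular to induced HA. Over all shorter stretches their ratio was 0.208 to 0.297, against 0.229 to 0.306 for induced HA, and the other 4 control lists had no summit in the 74 domains.

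The density of HA summits on the mark was lower in longer stretches. Counted only on H3K27me3 peaks and per Mb covered by them, the 74 domains had 99.1 to 163 induced HA summits, or 0.403 to 0.510 times the density in shorter stretches. This density was 557 ± 67.0 per Mb covered in stretches under 1 kb (mean ± SD, n = 4 libraries), 246 ± 33.1 at 1 to 2 kb, 171 ± 25.4 at 2 to 3 kb, 127 ± 20.6 at 3 to 4 kb and 124 ± 31.8 at 4 to 5 kb. In the 74 long domains it was 145 ± 30.9. Against stretches of 3 to 5 kb the long domains were 1.01 to 1.30 times as dense, higher in 4 of 4 libraries but by little (exact sign flips p = 0.125, n = 4). The long domains thus lay closer to other stretches of several kb than to the shortest ones.

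Within the 74 domains, HA summits kept to the H3K27me3 peaks. Of 150 induced HA summits there, 117 lay on an H3K27me3 peak. The share was 76.9 and 80.5% after +Myf6 and 73.3 and 81.6% after +Myf6+F/R/C, although gaps made up more of the length than peaks did. Per Mb, the parts covered by H3K27me3 peaks had 3.64 to 5.85 times as many summits as the gaps, higher in 4 of 4 libraries (exact sign flips p = 0.125, n = 4). Over all 79 domains the on-mark share was 82.2 ± 2.25% for induced HA and 82.3 ± 9.22% for IgG of the same cells (n = 4 each, exact permutation p = 1.00), so the groups overlapped. These IgG lists had 0 or 2 summits each inside the 74 domains, so their share came almost wholly from the 5 domains set apart. The comparison therefore cannot say how HA and IgG differ in the 74.

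A larger share of induced HA peaks than of IgG peaks lay near the ends of domains, but the call was lost under several settings. Of summits inside a domain or up to 1000 bp outside it, 40.3 and 51.8% of HA summits after +Myf6 and 47.6 and 41.1% after +Myf6+F/R/C were within 1000 bp of an end. In the IgG lists of the same cells the shares ran from 20.5 to 31.2%. Means were 45.2 ± 5.48% and 25.8 ± 5.61% (SD, n = 4 each), and the groups did not overlap (exact permutation p = 0.0286, two-sided; 0.0857 adjusted; exact sign flips p = 0.125 with the replicate block). The difference was 8.31 points without the 10 longest domains (exact permutation p = 0.229), 8.53 with lists at equal length (p = 0.343), 6.75 at −log10 q of at least 10 (p = 0.2) and 5.91 with edges of 500 bp (p = 0.0571). The 4 IgG lists had 0 or 2 summits each inside the 74 domains, too few for this comparison there. Their share came almost wholly from the 5 domains set apart. Of the summits of all 6 IgG lists, 124 were in the 25469-bp and 49 in the 9713-bp domain on chromosome 9. In domains that long, the outer 1000 bp make up a smaller part of the span than in most of the 74. The comparison therefore cannot say whether HA and IgG differ in how they keep to ends.

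Inside the 74 domains, the outer 1000 bp held more HA summits than the deeper part, and H3K27me3 peaks covered a larger share of the outer part. Of the 150 induced HA summits, 83 were in the outer 1000 bp, which made up 31.6% of the span, and 67 were deeper. The outer part had 140 ± 37.6 summits per Mb and the deeper part 52.2 ± 14.5 (n = 4 libraries), a ratio of 1.75 to 3.76 in 4 of 4 libraries (exact sign flips p = 0.125). By the joining rule each end of a domain is the end of an H3K27me3 peak, and peaks covered 77.5% of the outer part and 27.2% of the deeper part. On H3K27me3 peaks and per Mb covered, the values were 172 ± 38.6 and 109 ± 42.4. That ratio ran from 0.924 to 2.28 and was above 1 in 3 of 4 libraries (exact sign flips p = 0.25). On length covered by H3K27me3 peaks the outer part was thus denser in 3 libraries and slightly sparser in +Myf6+F/R/C replicate 2.

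On average over the 4 libraries, summits were not most frequent at the end itself, which was not tested. From 0 to 500 bp inside there were 111 ± 38.8 per Mb, and from 500 to 1000 bp inside 169 ± 54.6. In these 2 bands the counts were 5 and 10, and 8 and 18, in the +Myf6 libraries. With +Myf6+F/R/C they were 12 and 13, and 8 and 9, so the bands hardly differed there. Between 1000 and 2000 bp inside the density was 55.7 ± 23.6, and deeper it was 49.2 (23.1 to 63.7 over the 4 libraries). Just outside, it was 25.3 ± 11.5 in the first 1000 bp, 18.6 ± 3.38 from 1000 to 2000 bp and 13.5 ± 4.12 from 2000 to 5000 bp. Farther out it was 29.5 ± 5.76 at 5 to 10 kb and 22.1 ± 3.10 at 50 to 100 kb. By the rule no H3K27me3 peak can lie within 3000 bp of a domain. Length covered by H3K27me3 peaks farther out was not measured. The lowest value of a single library, 9.02 per Mb, was also at 2 to 5 kb, where the densities overlapped the 8.96 to 12.3 of chromatin outside stretches.

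**Figure D4:**
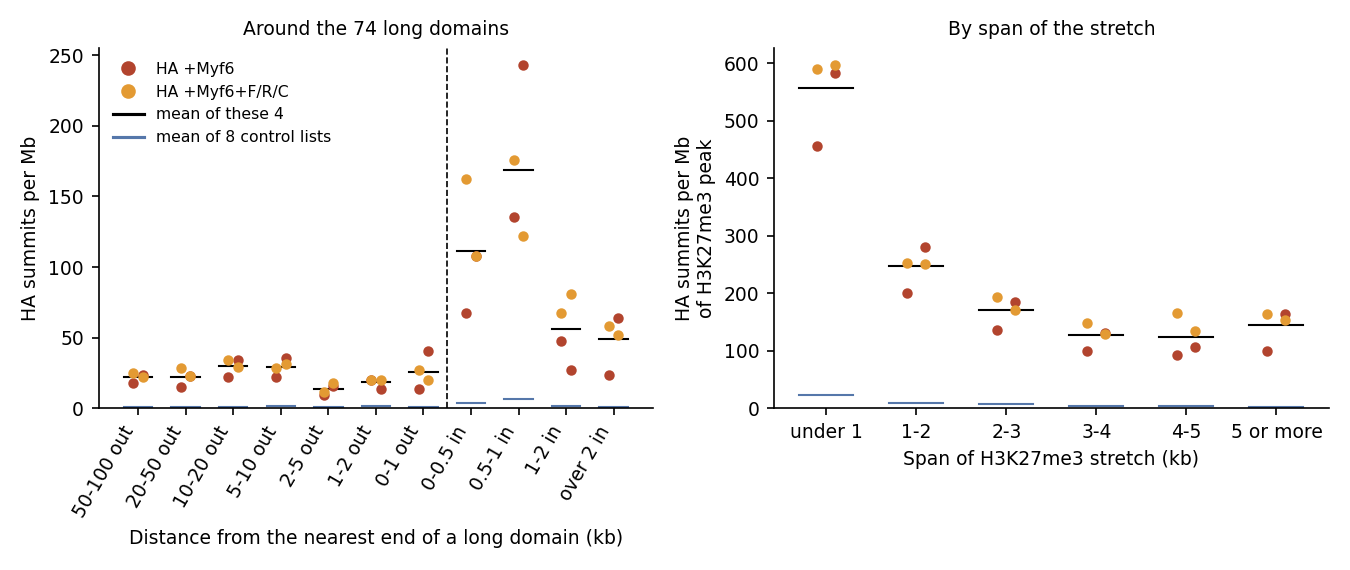
Left, induced HA summits per Mb (points, 1 per library; black lines, mean of 4; blue lines, mean of the 8 control lists) by distance in kb outside or inside the nearest end of the 74 long domains. Right, HA summits on H3K27me3 peaks per Mb of such peak by span of the stretch in kb: the mean is 557 under 1 kb and 145 in the long domains, close to the 3 to 5 kb classes.

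HA peaks inside the 74 domains were of modest strength for their lists. Their median fold was 4.89 and 4.54 after +Myf6 and 4.59 and 4.56 after +Myf6+F/R/C, against 5.12 to 5.30 in shorter stretches. The ratio was 0.856 to 0.923, below 1 in 4 of 4 libraries (exact sign flips p = 0.125, n = 4). Summit pileups were not low, with medians of 10 to 13 fragments against 9 to 13 in shorter stretches. The expected pileup was 1.36 to 1.50 times as high as in shorter stretches, again in 4 of 4 libraries (exact sign flips p = 0.125). By −log10 p, the median peak stood at 56.5 to 64.2% of its list from the top. In the same lists it stood at 43.7 to 49.3% in shorter stretches and at 50.2 to 51.7% outside stretches. None in the 74 domains was among the 100 strongest of an induced list, but they held only 0.0928 to 0.121% of each list. The higher expected pileup moves with the lower fold, and its part in the result was not tested.

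Most HA regions in the 74 domains were seen in a single library. Of 80 merged HA regions without a control peak in the 74 domains, 49 (61.3%) were in 1 of the 4 induced lists and 7 (8.75%) in all 4. In shorter stretches 46.3% of 14097 such regions were in 1 list and 16.9% in all 4. Outside stretches the shares were 58.3 and 10.7% of 48799 regions. These shares were not tested against each other, since regions of a library are not replicates.

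The 7 regions found in all 4 induced HA lists and no control list lay in 7 different domains. The strongest was at chr11:100509242-100510264, 569 bp inside a domain of 5177 bp (chr11:100509213-100514389). Its HA folds were 5.62 and 6.33 after +Myf6 and 7.77 and 6.30 after +Myf6+F/R/C, with summit pileups of 18, 20, 39 and 35 fragments. Both +Myf6+F/R/C pileups were above both +Myf6 ones. Depth, in the same order, was 42.4, 30.6, 61.9 and 40.9 fragments per 10 kb, and its part in the pileups was not tested. It was within the strongest 2.7 and 2.9% of peaks in the +Myf6+F/R/C lists.

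On chromosome 3 the region chr3:96508026-96508540 lay 2154 bp inside a 5586-bp domain (chr3:96504859-96510444), in a gap between H3K27me3 peaks. Folds there were 6.64 and 6.59 with +Myf6 and 6.13 and 4.84 with +Myf6+F/R/C. The other 6 regions overlapped an H3K27me3 peak, though the one on chromosome 19, given below, had its summit off the mark in some lists. At chr11:68950086-68950612, 634 bp inside a domain of 5468 bp (chr11:68949563-68955030), folds were 5.49 and 4.52 with +Myf6 and 4.28 and 7.40 with +Myf6+F/R/C, so the highest and lowest values were in the same condition. At chr17:35116511-35117394, 2154 bp inside a domain of 5832 bp (chr17:35113407-35119238), folds were 4.05 and 4.55 with +Myf6 and 5.70 and 5.04 with +Myf6+F/R/C.

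The remaining 3 regions of this kind lay within 1000 bp of an end, as did both on chromosome 11. At chr10:81268473-81269072, 94 bp inside the end of a 7774-bp domain (chr10:81261173-81268946), folds were 5.95 and 3.99 with +Myf6 and 5.63 and 4.32 with +Myf6+F/R/C. Both replicates numbered 1 were higher there than both numbered 2. At chr12:113119272-113119881, 916 bp inside a domain of 5240 bp (chr12:113115339-113120578), folds were 3.76 and 5.94 with +Myf6 and 4.76 and 5.24 with +Myf6+F/R/C. The region chr19:5774461-5775494 straddled the start of a domain of 6673 bp (chr19:5775029-5781701), with folds of 5.39 and 6.40 and then 5.11 and 3.76, and only the lists numbered 1 had their summit inside the domain.

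The longest domain was an evenly spaced row of peaks. It lay on chromosome 4 (chr4:88691326-88724390) and held 12 H3K27me3 peaks over 33065 bp. Their summits were 2651 to 3183 bp apart, with a median of 2918 bp, and the coefficient of variation of the 11 spacings was 6.79%. Among the 26 domains with at least 4 H3K27me3 peaks, the median of this coefficient was 58.2%, and 1 other domain was under 10%. The 12 peaks were also alike in size, 614 to 901 bp wide with summit pileups of 49 to 67 fragments and folds of 4.43 to 7.26. The even spacing was noticed in the data, and whether the sequence repeats there was not tested, as no genome of this build was used.

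HA summits in the longest domain followed the same spacing. There was 1 summit in +Myf6 replicate 1 and 6 in each of the other 3 induced HA lists, 19 in all, and none in the 8 control lists. All 19 lay at higher coordinates than the nearest H3K27me3 summit, by 29 to 588 bp with a median of 391 bp, and 10 of the 12 H3K27me3 peaks had one. They formed 10 regions, of which 7 neighbouring pairs were 2851 to 3066 bp apart and the other 2 were 5801 and 5819 bp apart. No region was in all 4 lists. The peaks were weak, with folds of up to 5.57 (median 4.08), pileups of 8 to 13 fragments and a median rank at 80.8% of their lists. They made up 12.7% of the induced HA summits of the 74 domains. A second domain of 6788 bp lay 9.41 kb before it, with 4 induced HA summits.

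**Figure D5:**
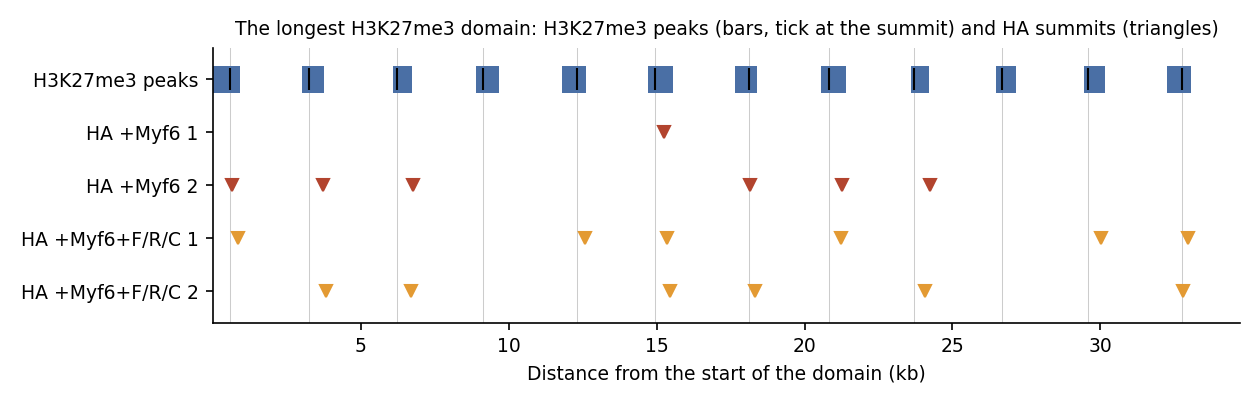
The longest domain, by distance from its start in kb: H3K27me3 peaks of +Myf6+F/R/C cells (bars, with a tick and a grey line at each summit) and HA summits of the 4 induced libraries (triangles). The 12 bars are about evenly spaced, and each of the 19 HA summits is to the right of the nearest grey line.

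The other domain of even spacing was the fourth longest, on chromosome 17 (chr17:47812387-47822568, 10182 bp). Its 4 H3K27me3 summits were 3007, 3147 and 3244 bp apart, and peaks covered 17.8% of it, the lowest share of all. HA summits were found in all 4 induced lists, 1 and 2 with +Myf6 and 2 and 2 with +Myf6+F/R/C. The region at its end (chr17:47822199-47822609) had folds of 7.15 and 5.28 with +Myf6 and 6.10 and 4.84 with +Myf6+F/R/C, and also a peak in 1 IgG list with a fold of 4.53. The IgG pileup there was 5 fragments, against 11 to 18 with induced HA.

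Several of the longest domains had no HA or IgG summit at all. The third longest, chr13:22091419-22103944 (12526 bp, 6 H3K27me3 peaks, highest fold 4.69), was empty in all 12 lists. So were chr5:142799388-142806933 (7546 bp), chr3:143904226-143911662 (7437 bp), chr13:16186534-16193778 (7245 bp) and chr13:23490938-23498048 (7111 bp). Of the remaining long ones, chr11:69008397-69016575 (8179 bp) had a summit in +Myf6+F/R/C replicate 2 alone. The 20 domains without an induced HA summit did not stand out by their mark: their highest H3K27me3 fold had a median of 3.90, against 4.29 in the 12 domains with summits in all 4 lists, and their span had medians of 5638 and 5508 bp.

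Few domains separated the treatments. HA summits with +Myf6+F/R/C in both replicates, and in no +Myf6 list, were found in 3 domains (3.8%, against 2.67% of all stretches). The reverse held for 2 domains (2.53%, against 1.59%). Splitting the libraries by replicate number instead gave 3 domains for both replicates 2 alone and 1 for both replicates 1 alone, so treatment and replicate number separated like numbers of domains.

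As merged regions, 3 had a peak in both replicates of +Myf6+F/R/C alone and 1 in both of +Myf6 alone. These were 0.103% of 2915 such regions on chromosomes 1 to 19 and 0.0599% of 1669. The 74 domains held 0.127% of all 67958 regions with a peak in any induced HA list. The clearest was chr13:21357474-21357787, 538 bp inside a domain of 7175 bp (chr13:21350938-21358112), with folds of 5.69 and 6.68 and pileups of 20 and 22 fragments. At chr7:16030643-16030851, in a domain of 5241 bp (chr7:16028955-16034195), folds were 4.91 and 3.77, and in the evenly spaced domain on chromosome 17 the region chr17:47818929-47819370 had folds of 3.67 and 3.92. The region of +Myf6 alone, chr17:34139525-34139896, was 76 bp inside the shortest domain of all, with folds of 4.81 and 5.25. No peak in the other treatment means only that none was called at its depth.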

How the data were processed

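CUT&RUN peaks of 13 libraries were used, and each library has a list of its own. MACS2, DiffBind and deepTools and the build GRCm39 are named per the submitters' processing notes; for versions and aligner, nothing is stated in the sources used here. The lists, as deposited by the authors, give interval and summit positions, a fold enrichment (a ratio), a −log10 p-value and a −log10 q-value for every peak, with a lowest −log10 q of 1.3. In tests, fold and −log10 p values were used within a list only. Folds of different lists set side by side are printed as deposited, without scaling between libraries. Summit pileup k and expected pileup were recovered from fold = (k + 1)/(expected + 1) and the Poisson tail to within 0.005 of the deposited −log10 p for at least 99.9% of peaks in every list. On 5000 simulated peaks this was tested and gave 100.0% back. Fragments per 10 kb come from a list's lowest expected pileup, with its narrowest peak as fragment length. Spike-in reads were not used.

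Domains were built as the report says, and summits were placed inside, within 1000 bp of an end, or outside. Chromosome length was taken from the first to the last peak of any list. Regions merge HA and IgG peaks that share at least 1 bp. Shares were compared with exact permutation tests over libraries, two-sided, and ratios within libraries with exact sign flips, the latter added after the data were seen. For the 6 share comparisons the unadjusted threshold was 0.05, and the lowest Benjamini-Hochberg value was 0.0857.

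Named domains are the 10 longest, those nearest the threshold, those with most regions of all 4 induced HA lists and no control list, the 5 longest without a summit, those with regions of 1 treatment only, and the 5 with most IgG peaks. The even spacing was noticed afterwards. The rule and the lists were chosen with earlier results of these data known. Not described are 1 of the 10 longest, on chromosome 18, and 2 each of the 5 nearest above and below the threshold. Nuclei of 1 sample were divided between HA and IgG, per the labels' protocols, and same-numbered libraries form the pairs of the replicate block. Over stretches, replicate differences of HA and IgG in the presence of a summit correlated with r of 0.000412 to 0.00720. The H3K27me3 library is titled replicate 1 but shares its name prefix with replicate 2 of its condition. Gene names, sequences and an E-box comparison need a genome and annotation of GRCm39 and are not reported. Python 3.11.15, numpy 2.4.6, pandas 2.3.3, scipy 1.17.1 and matplotlib 3.10.9 were used.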

Additional observations from a re-analysis of the deposited data

Results flagged for a closer look

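Chromosome X was outside the rule, and 4 stretches there would have passed it, with a span of at least 5000 bp. They held 8 HA summits of induced cells and none of the 8 control lists, a signal in data that the report does not use. Of the 4 stretches, chrX:49686271-49694498 (8228 bp) had 2 summits in +Myf6 replicate 2 and 3 in +Myf6+F/R/C replicate 2, and chrX:49700821-49706349 (5529 bp) had 1 in +Myf6+F/R/C replicate 2. At chrX:11953208-11958418 (5211 bp) each +Myf6 library had 1, and at chrX:73287806-73293364 (5559 bp) there was none. In the 6 groups of 4 libraries looked at, no library stood apart from the others in the inside, edge or on-mark share.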

How the results depend on the processing

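Values are differences in percentage points. For the inside share of induced HA against IgG, 14 of 20 alternatives kept direction and call. The replicate block gave -4.42 (exact sign flips p = 0.125), leaving out 1 library gave -5.38 to -2.88 (exact permutation p = 0.0571 without any 1 HA library), and without the 5 domains of 4 or more IgG lists, chosen after seeing the data by their IgG summits, it was 0.0340, a drop of the IgG share that the choice itself fixes. That last setting also turned +Myf6 against no doxycycline, to 0.0353. +Myf6+F/R/C minus +Myf6 changed sign with gaps of 5000 bp (0.0259), spans of 3000 bp (0.0665), lists at equal length (0.00892), without peaks of 4 or more IgG lists (0.0114), without the 10 longest domains (8.59e-05) and without the 5 domains (0.0141), and ran from -0.0119 to 0.00661 without 1 library. HA against IgG without doxycycline kept its direction in 16 of 16.

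The edge share lost its call at spans of 10000 bp (6.58), at −log10 q of at least 10 (6.75), at equal length (8.53), without peaks of 4 or more IgG lists (29.3), without the 10 longest domains (8.31), with edges of 500 bp (5.91) and with the replicate block (19.4). The on-mark share turned at gaps of 5000 bp (5.41), spans of 10000 bp (10.1), −log10 q of at least 5 for H3K27me3 (0.687) or for HA and IgG (1.42), at least 10 (3.94), equal length (10.4) and without peaks of 4 or more IgG lists (43.5, which leaves 4 to 7 IgG summits a list and is no test), and ran from -3.33 to 2.71 without 1 library. The cause was not tested.

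The number of long domains was 0 at gaps of 1000 bp, so no share could be computed there, 804 at 5000 bp, 785 and 4 at spans of 3000 and 10000 bp, and 32 at −log10 q of at least 10. Domains with summits in both +Myf6 HA lists were 9 at −log10 q of 5 or more, 4 at 10 or more, and 13 without peaks of any control list. For +Myf6+F/R/C they were 13 and 6. The E-box comparison was not run. A library's depth limits which weak peaks are called, and IgG lists of 410 to 1648 peaks make IgG shares coarse.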
